A study of Mus musculus with 6 samples.

Results

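Chemokine receptors are the cell-surface proteins with which myeloid cells read chemokine gradients, and 9 of them, other than Ccr7, are described here in 3 sorted populations of cultured mouse bone marrow cells. The members are Ccr1, Ccr2, Ccr3, Ccr6, Cx3cr1, Cxcr3, Cxcr4, Cxcr5 and Ccrl2, chosen by name: each is the probe set of the array that is annotated with that symbol and no other gene. All 9 were found, each with 1 such probe set, among the 19938 genes measured, and no multi-gene probe set held any of them.

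The study grew bone marrow cells of C57BL/6J mice, labelled male and 6 to 10 weeks old, for 7 days in supplemented RPMI medium and sorted them. GM-BMDC are dendritic cells grown with 25 ng/ml GM-CSF and sorted from the MHCIIhighF4/80low cells. GM-BMM are macrophages sorted from the MHCIIlowF4/80high cells of cultures given the same dose of GM-CSF. M-BMM are macrophages, positive for CD11b and for the macrophage antigen used in the other gates, grown with 20% L cell conditioned medium, which supplied M-CSF. Between M-BMM and the other populations the growth factor, its source and the sort gate changed together. Each population has 2 arrays, made from 300 ng of total RNA each. The labels call them biological replicates without saying which animals or cultures they came from, and the p-values rest on the spread of arrays alone, which may be partly technical.

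Values are RMA log2 signals, so a difference of 1 is a 2-fold difference, and levels are compared between populations for 1 gene, not between genes. A mean is called low when it lies below 5.04, which 25% of all values do. Array medians ran from 6.18 to 6.28, and arrays correlated over all genes at 0.951 to 0.989. The genes of the gates were checked: H2-Aa, H2-Ab1 and H2-Eb1 were higher and Adgre1 and Itgam, which encode the antigens of the macrophage gates, lower in GM-BMDC than in both macrophage populations. The Adgre1 and Itgam calls were lost without either M-BMM array (limma adjusted p = 0.0506 to 0.0883) and, against GM-BMM, without GM-BMM replicate 2 (0.0630 and 0.0625), and that of Itgam also without GM-BMM replicate 1 (0.0567). Without GM-BMDC replicate 1 the Adgre1 difference from GM-BMM went from -2.31 to -1.56, and without GM-BMM replicate 1 the 3 class II differences from GM-BMM lay between 1.61 and 1.99 in place of 2.21 and 2.62. All 12 genes of a dendritic cell list, chosen with earlier results of these data known, were higher in GM-BMDC than in GM-BMM and than in M-BMM. A macrophage list with 14 measured genes separated them less. In GM-BMDC 0 were higher, 5 lower and 9 not called against GM-BMM, and 0, 4 and 10 against M-BMM. The sex-linked genes of 3 arrays go against the male label. GM-BMDC replicate 1 and GM-BMM replicate 1 had high Xist (11.66 and 11.58) and low Eif2s3y (3.94 and 3.66), and GM-BMDC replicate 2 had both high (Xist 10.68, Eif2s3y 8.80). GM-BMM replicate 2 and both M-BMM arrays had low Xist (4.53 to 4.93) and high Eif2s3y (9.10 to 9.32). Receptor differences whose call or direction changes when 1 of these arrays is left out are given both ways.

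Chemokine receptors are 7-pass membrane proteins that signal through inhibitory G proteins to phosphoinositide 3-kinase, phospholipase C and the small GTPases that move the cell. Ccr1 and Ccr2 draw myeloid cells to inflamed tissue, and Ccr2 is known for the exit of monocytes from bone marrow. Cxcr4 holds leukocytes in the marrow through Cxcl12, Cx3cr1 binds the tethered chemokine Cx3cl1, and Ccrl2 is an atypical receptor that presents chemerin without signalling by itself.

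Promoter sequence is shown for 4 members, 3 that were higher in both GM-CSF populations than in M-BMM (Ccr1, Ccr2, Cxcr4) and 1 that was lowest in GM-BMDC (Ccrl2), so that genes which varied alike can be read side by side. Each is the 250 bases before the transcription start in RefSeq's table for GRCm38.p6, 5′ to 3′ on the gene's strand. The windows are chr9:123968693-123968942 (minus strand) for Ccr1, chr9:124101933-124102182 (plus) for Ccr2, chr1:128592300-128592549 (minus) for Cxcr4 and chr9:111057519-111057768 (minus) for the first of the 3 starts listed for Ccrl2. Capitals mark matches to 5 short motifs, which were chosen after the values were seen and searched on both strands.

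Ccr1: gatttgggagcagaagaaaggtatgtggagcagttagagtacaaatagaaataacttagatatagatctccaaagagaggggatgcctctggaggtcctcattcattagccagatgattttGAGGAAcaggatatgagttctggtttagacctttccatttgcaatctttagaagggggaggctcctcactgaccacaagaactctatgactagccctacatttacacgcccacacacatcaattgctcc
Ccr2: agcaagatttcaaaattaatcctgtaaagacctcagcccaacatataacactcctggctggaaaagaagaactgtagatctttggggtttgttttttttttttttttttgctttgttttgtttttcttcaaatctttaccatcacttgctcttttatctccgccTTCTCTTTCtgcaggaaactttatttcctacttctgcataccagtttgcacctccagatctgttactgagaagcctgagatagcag
Cxcr4: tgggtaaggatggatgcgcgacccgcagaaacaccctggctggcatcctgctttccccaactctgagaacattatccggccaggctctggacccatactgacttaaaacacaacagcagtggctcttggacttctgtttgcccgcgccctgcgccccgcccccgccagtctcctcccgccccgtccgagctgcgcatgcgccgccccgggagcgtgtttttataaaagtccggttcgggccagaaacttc
Ccrl2: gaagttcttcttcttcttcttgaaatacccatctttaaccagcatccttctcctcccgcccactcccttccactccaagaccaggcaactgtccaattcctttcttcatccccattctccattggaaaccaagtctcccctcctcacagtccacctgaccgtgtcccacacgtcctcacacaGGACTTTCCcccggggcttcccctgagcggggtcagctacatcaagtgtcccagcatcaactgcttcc

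The motifs were GAGGAA for PU.1, GAAANNGAA for an interferon response element, GGANTTTCC for NF-kB, TTCNNNGAA for STAT and TGANTCA for AP-1. The Ccr1 window held GAGGAA, beginning 129 bases before the start, a match found in 23.3% of 32851 promoters. The capitals in the Ccr2 window, 86 bases before the start, are GAAANNGAA read on the opposite strand, which 7.13% of promoters held. The Ccrl2 window held GGANTTTCC, 68 bases before its start, a match in 1.07% of promoters. That window belongs to the first listed start, and the windows of the other Ccrl2 starts held no match to any motif. Among members not shown, Ccr3, which passed no comparison, also held GGANTTTCC. A window of Ccr3, of Ccr6 and of Cxcr3 held GAGGAA. The Cxcr4 window held no match. STAT and AP-1 matches, held by 7.02% and 6.75% of promoters, were in none of the 4 windows. A match describes letters and is not a bound site, and the 3 members that rose in GM-CSF populations shared no match. In all, 8 of the 9 members have a listed promoter, and Cxcr5 has none listed.

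Over the 9 members, 3 passed the test between GM-BMDC and GM-BMM (2 higher in GM-BMDC, 1 lower), at limma's Benjamini-Hochberg adjusted p under 0.05 over all genes. The background is 10.4% of all genes called in that comparison, 4.69% higher and 5.74% lower. Between GM-BMM and M-BMM 4 members passed, 3 higher and 1 lower in GM-BMM, against 6.19% of all genes, 3.62% higher and 2.57% lower. Between GM-BMDC and M-BMM 7 members passed, 5 higher and 2 lower in GM-BMDC, against 16.7% of all genes, 7.76% higher and 8.9% lower. The members' median log2 difference was -0.06, 0.86 and 0.81 in these comparisons, and the median over all genes was 0.02, -0.02 and -0.002. Comparisons that share a population share its arrays, and the members were chosen with earlier results known, so these counts describe the 9 genes only. The same shares of all genes are the background for the counts of each gene list. In bulk RNA, fewer cells of a type and less RNA per cell cannot be told apart.

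**Figure D1:**
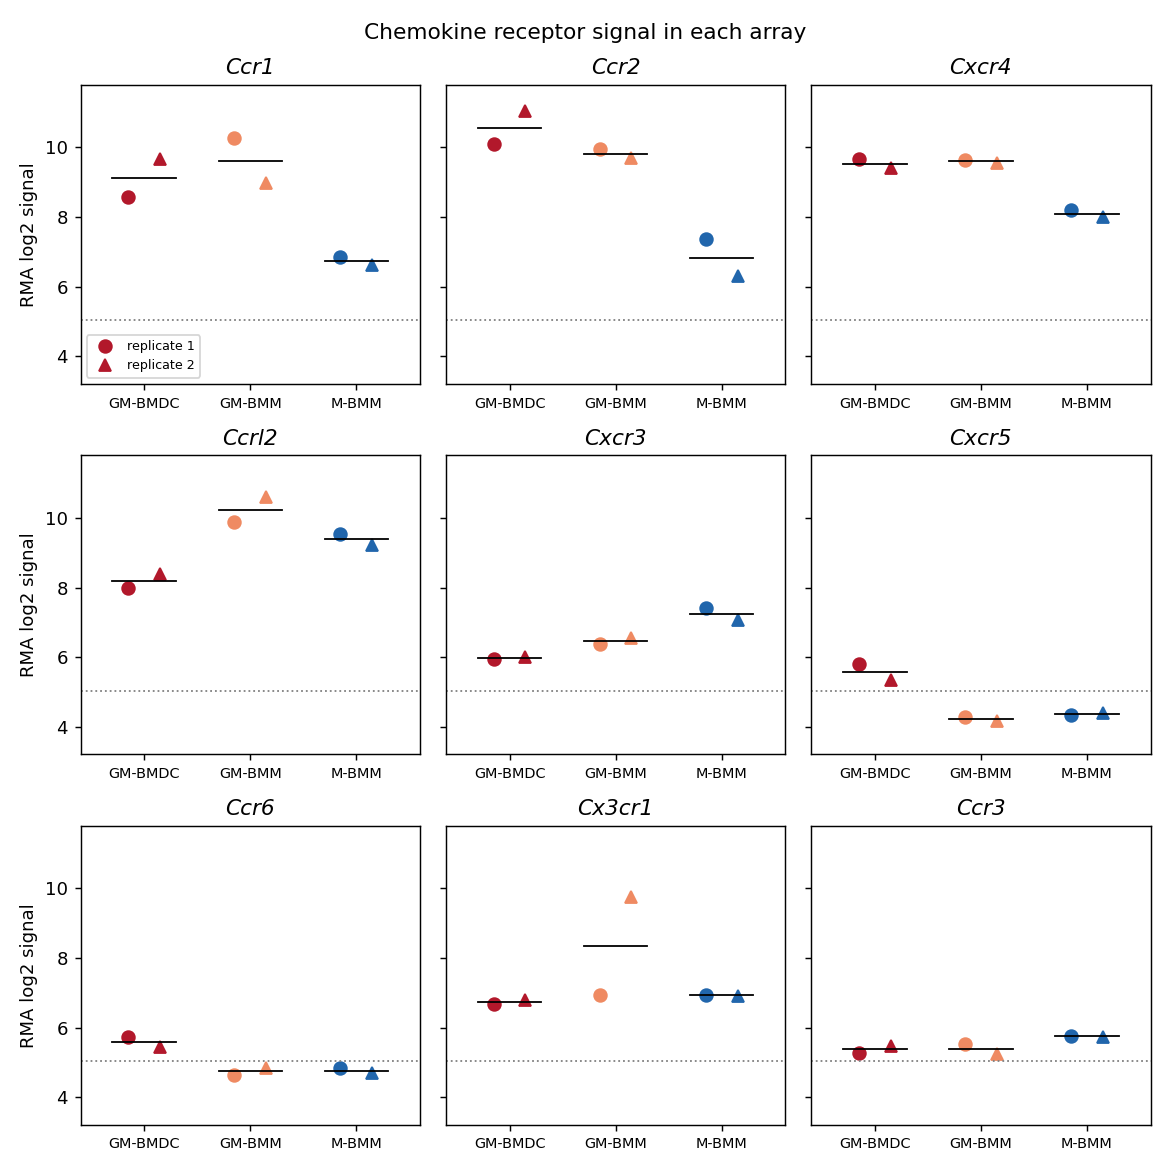
RMA log2 signal of each of the 9 receptors (y axis) in each array, by population (x axis). Circles are replicate 1, triangles replicate 2, black bars the mean of 2 arrays, and the dotted line is the 25th percentile of all values. Ccr1, Ccr2 and Cxcr4 sit lowest in both M-BMM arrays, and 1 GM-BMM array sets Cx3cr1 apart.

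Ccr2, the receptor for Ccl2 and Ccl7, had the largest difference of the 9. It measured 10.09 and 11.04 in GM-BMDC, 9.95 and 9.70 in GM-BMM, and 7.36 and 6.29 in M-BMM. The 4 GM-CSF arrays all lay above both M-BMM arrays, and both GM-BMDC arrays lay above both GM-BMM arrays. GM-BMDC exceeded M-BMM 13.4-fold, a log2 difference of 3.74 ± 0.39 (SE, n = 2 arrays a group, limma adjusted p = 0.000867). GM-BMM exceeded M-BMM 7.99-fold, 3.0 ± 0.39 (limma adjusted p = 0.00519). Without M-BMM replicate 2 the latter difference was 2.46 and the limma adjusted p 0.0504. The GM-BMDC and GM-BMM means differed by 0.74 ± 0.39, with a 95% interval of -0.18 to 1.66, and did not pass (limma adjusted p = 0.326). The 2 M-BMM arrays differed by 1.07, and only 15 other genes of 19938 differed as much between them. All 15 were higher in M-BMM replicate 2, whereas Ccr2 was lower there. Most of the 15 had signals in or near the low range, such as Taar8c (2.40 and 3.47) and Hamp (3.68 and 5.10), though Mir680-1 (6.96 and 8.20) did not.

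Ccr1, a receptor for Ccl3, Ccl5, Ccl6 and Ccl9, was also lowest in M-BMM, with wide gaps between replicates of the other populations. Its signals were 8.58 and 9.67 in GM-BMDC, 10.26 and 8.98 in GM-BMM, and 6.85 and 6.63 in M-BMM. All GM-CSF arrays were above the M-BMM arrays, and the GM-BMDC and GM-BMM arrays interleaved. It was 7.39-fold higher in GM-BMM than in M-BMM, 2.89 ± 0.45 on the log2 scale (limma adjusted p = 0.0110). GM-BMDC exceeded M-BMM 5.22-fold, 2.38 ± 0.45 (limma adjusted p = 0.0114). Leaving out either M-BMM array ended both calls, with limma adjusted p-values of 0.0853 to 0.132, although the differences stayed between 2.27 and 3.0. The first difference was 2.25 without GM-BMM replicate 1 and 3.52 without GM-BMM replicate 2, and its limma adjusted p was 0.0515 with a trended, robust variance and 0.0536 with all probe sets tested.

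Monocytes carry Ccr1 and Ccr2, and the 8 measured monocyte markers averaged 7.58 and 7.77 in GM-BMDC, 9.46 and 9.26 in GM-BMM, and 7.69 and 7.43 in M-BMM. Between GM-BMM and M-BMM 4 of them were higher (Hp, Chil3, Fn1 and Vcan), 0 lower and 4 not called, with a median log2 difference of 1.29. Between GM-BMDC and M-BMM 2 were higher (Fn1 and Vcan), 3 lower and 3 not called, with a median of -1.08. Between GM-BMDC and GM-BMM 0 were higher, 5 lower and 3 not called. The part of monocyte RNA in the Ccr1 and Ccr2 results was not tested.

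Between GM-BMDC and GM-BMM the Ccr1 difference was -0.50 ± 0.45, with a 95% interval of -1.57 to 0.56 (limma adjusted p = 0.610), and its direction depended on single arrays. It was 0.04 without GM-BMDC replicate 1 and 0.14 without GM-BMM replicate 1. With both GM-CSF arrays numbered 1 left out it was 0.68 (limma adjusted p = 0.0564), and with both numbered 2 left out -1.69 (limma adjusted p = 0.000735). Each of these last fits has 1 array in both groups, which is assumed to vary like the M-BMM arrays. The arrays numbered 1 are those with low Y-linked signal, and GM-BMDC replicate 2 also goes against the male label, so neither fit separates the arrays by their sex genes alone.

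Cxcr4, the receptor for Cxcl12, was higher in both GM-CSF populations too, with closely spaced replicates. Its values were 9.68 and 9.40 in GM-BMDC, 9.64 and 9.56 in GM-BMM, and 8.19 and 8.0 in M-BMM. The GM-CSF populations overlapped, and both lay clear of M-BMM. The difference from M-BMM was 1.5 ± 0.14 in GM-BMM (2.84-fold, limma adjusted p = 0.00102) and 1.44 ± 0.14 in GM-BMDC (2.72-fold, limma adjusted p = 0.000594). GM-BMDC minus GM-BMM was -0.06 ± 0.14, with a 95% interval of -0.38 to 0.26 (limma adjusted p = 0.862), and its sign changed without GM-BMDC replicate 2 (0.08).

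Ccr1, Ccr1l1, Ccr3 and Ccr2 are consecutive protein-coding genes of chromosome 9 in RefSeq's order, and they did not vary alike. Ccr1 and Ccr2 at the ends of this run were higher in the GM-CSF populations. Ccr1l1, a Ccr1-like receptor gene named here after its values were seen, measured 4.96 and 4.70 in GM-BMDC, 4.94 and 4.78 in GM-BMM, and 6.00 and 5.29 in M-BMM. It was lower in GM-BMDC than in M-BMM by -0.82 ± 0.22 (limma adjusted p = 0.0475), and GM-BMM minus M-BMM was -0.79 ± 0.22 (limma adjusted p = 0.0965). Its means in GM-BMDC and GM-BMM were low (4.83 and 4.86), and how its call depends on single arrays was not tested.

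Ccr3, the eotaxin receptor best known from eosinophils, passed no comparison. It measured 5.28 and 5.47 in GM-BMDC, 5.53 and 5.24 in GM-BMM, and 5.76 and 5.74 in M-BMM, so that the M-BMM arrays were the highest and the others overlapped. GM-BMM minus M-BMM was -0.36 ± 0.14, with a 95% interval of -0.68 to -0.04 (limma adjusted p = 0.208). GM-BMDC minus M-BMM was -0.38 ± 0.14, with an interval of -0.70 to -0.05 (limma adjusted p = 0.119), and -0.47 with both GM-CSF arrays numbered 2 left out (limma adjusted p = 0.0492). GM-BMDC minus GM-BMM was -0.02 ± 0.14, and its sign changed when replicate 1 of GM-BMDC (0.08) or of GM-BMM (0.13) was left out. An 8-gene eosinophil list averaged 6.06 and 6.22 in GM-BMDC, 6.25 and 5.59 in GM-BMM, and 5.44 and 5.63 in M-BMM, with the lowest array in M-BMM. In GM-BMDC 2 of the 8 were higher, 0 lower and 6 not called against GM-BMM, and the same numbers held against M-BMM. Between the macrophages 0 were higher and 0 lower. Only 1 of the 8, the receptor gene Il5ra, was low in all 3 populations, and the part of eosinophil RNA in the Ccr3 signal was not tested.

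Unlike Ccr1 and Ccr2, which were higher in GM-BMDC than in M-BMM, Ccrl2 was lower there than in M-BMM. Its signals were 8.0 and 8.39 in GM-BMDC, 9.87 and 10.61 in GM-BMM, and 9.55 and 9.21 in M-BMM. The 3 populations did not overlap, in the order GM-BMM, M-BMM, GM-BMDC. It was 4.13-fold lower in GM-BMDC than in GM-BMM, a difference of -2.05 ± 0.26 (limma adjusted p = 0.00302). It was 2.28-fold lower in GM-BMDC than in M-BMM, -1.19 ± 0.26 (limma adjusted p = 0.0188). That second call was lost without GM-BMDC replicate 1 (-1.0, limma adjusted p = 0.107), M-BMM replicate 1 (0.155) or M-BMM replicate 2 (0.0723), and with all probe sets tested (0.0650).

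The step between the macrophages, 0.86 ± 0.26 higher Ccrl2 in GM-BMM with an interval of 0.26 to 1.46, did not pass (limma adjusted p = 0.110). It passed with a Y-linked covariate (1.20, limma adjusted p = 0.0132) and with a replicate block in which the M-BMM numbers were exchanged (limma adjusted p = 0.0198). The difference was 1.22 without GM-BMM replicate 1 and 0.49 without GM-BMM replicate 2, where GM-BMM is 1 array. With both GM-CSF arrays numbered 1 left out it was also 1.22.

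Cmklr1, the signalling receptor for chemerin, was highest in GM-BMM. It measured 7.94 and 8.83 in GM-BMDC, 9.72 and 9.94 in GM-BMM, and 8.24 and 8.10 in M-BMM. GM-BMDC minus GM-BMM was -1.45 ± 0.26 (limma adjusted p = 0.0140), and GM-BMM minus M-BMM 1.66 ± 0.26 (limma adjusted p = 0.0111). GM-BMDC and M-BMM overlapped (0.21 ± 0.26, limma adjusted p = 0.690). The first call was lost without GM-BMM replicate 2 (-1.34, limma adjusted p = 0.0667) and the second without M-BMM replicate 1 (0.102) or 2 (0.131). Rarres2, which encodes chemerin, and the other chemerin receptor Gpr1 passed no comparison.

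**Figure D2:**
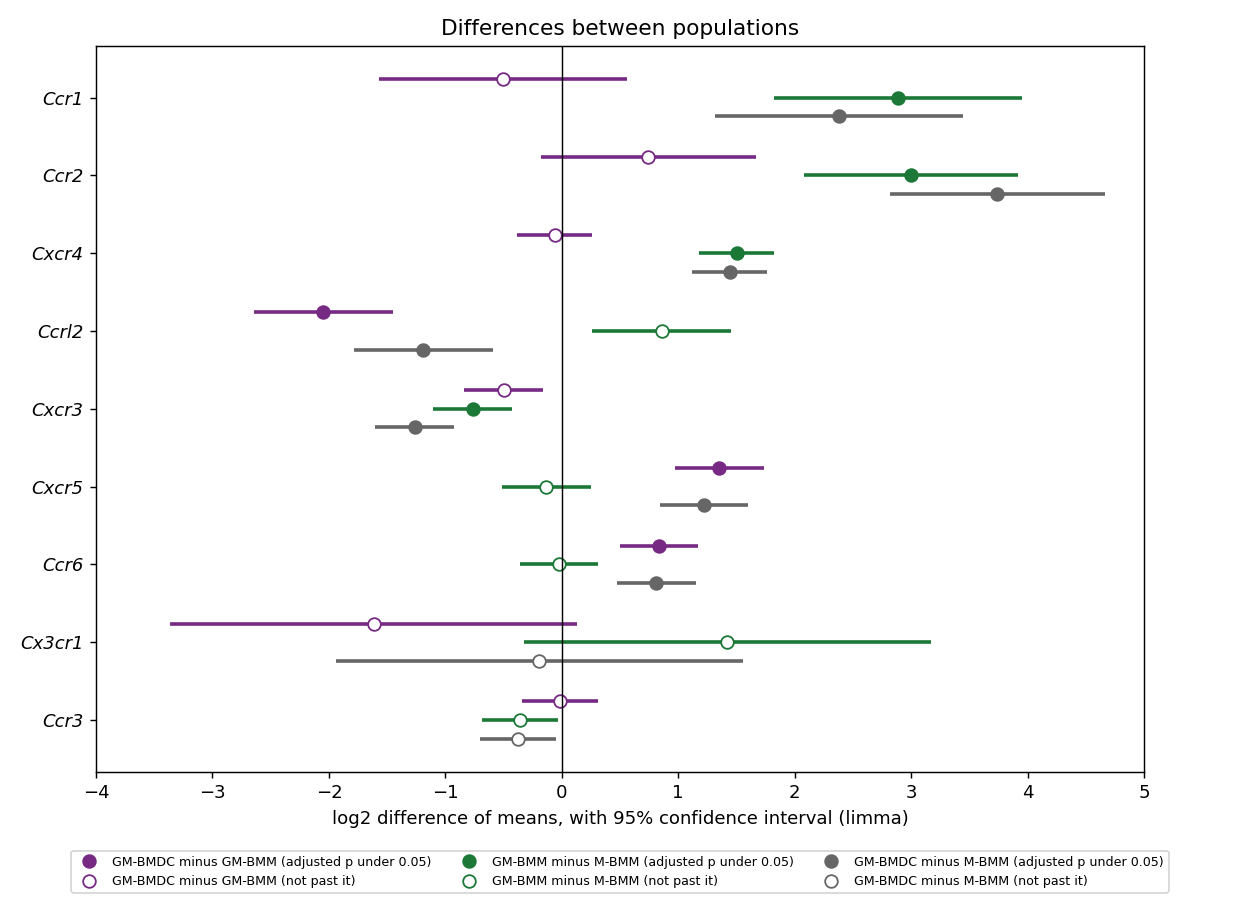
Log2 differences of group means for the 9 receptors (x axis, limma, with 95% confidence intervals), 1 colour for each comparison. Filled circles passed the adjusted p of 0.05 and open circles did not. For Ccr1, Ccr2 and Cxcr4 the differences from M-BMM lie to the right of 0, and the widest intervals are those of Cx3cr1.

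Cxcr3, the receptor for the interferon-induced chemokines Cxcl9, Cxcl10 and Cxcl11, was highest in M-BMM. Its signals were 5.95 and 5.99 in GM-BMDC, 6.37 and 6.56 in GM-BMM, and 7.40 and 7.06 in M-BMM. The populations did not overlap, in the order M-BMM, GM-BMM, GM-BMDC. It was 2.40-fold lower in GM-BMDC than in M-BMM, -1.26 ± 0.14 (limma adjusted p = 0.00126). It was 1.70-fold lower in GM-BMM than in M-BMM, -0.76 ± 0.14 (limma adjusted p = 0.0239). This second call was lost without GM-BMM replicate 1 (-0.67, limma adjusted p = 0.109), M-BMM replicate 1 (-0.59, 0.165) or M-BMM replicate 2 (-0.93, 0.0584), with all probe sets tested (0.0730) and with the Y-linked covariate (0.0879). GM-BMDC minus GM-BMM was -0.50 ± 0.14 (limma adjusted p = 0.0750), which passed only with the genes quantile normalised (-0.53, limma adjusted p = 0.0457).

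Cxcr3 is also a receptor of T and NK cells, and their 19 measured marker genes averaged 5.48 and 5.33 in GM-BMDC, 5.11 and 5.16 in GM-BMM, and 5.11 and 5.19 in M-BMM. GM-BMDC had 1 of them higher and 0 lower than GM-BMM, and 2 higher and 1 lower than M-BMM. GM-BMM had 0 higher and 1 lower than M-BMM. Only 7 of the 19 were low in all 3 populations, Cd3d and Cd3g among them. Cd4, also on the list, was higher in M-BMM, as Cxcr3 was, at 7.35 and 7.00 against 5.29 to 5.76 in the 4 GM-CSF arrays. The part of T cell RNA in the Cxcr3 result was not tested.

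Cxcr5, the receptor for the follicle chemokine Cxcl13, was found above the low range only in GM-BMDC. It measured 5.81 and 5.35 in GM-BMDC, 4.28 and 4.16 in GM-BMM, and 4.33 and 4.38 in M-BMM. Both GM-BMDC arrays were above all macrophage arrays. GM-BMDC minus GM-BMM was 1.35 ± 0.16 (2.56-fold, limma adjusted p = 0.00256) and GM-BMDC minus M-BMM 1.22 ± 0.16 (2.33-fold, limma adjusted p = 0.00237). GM-BMM minus M-BMM was -0.13 ± 0.16, with an interval of -0.51 to 0.25 (limma adjusted p = 0.764).

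Ccr6, the receptor for Ccl20, had the same order at smaller size. Its values were 5.72 and 5.43 in GM-BMDC, 4.64 and 4.84 in GM-BMM, and 4.84 and 4.69 in M-BMM. The macrophage arrays overlapped in the low range, below both GM-BMDC arrays. GM-BMDC exceeded GM-BMM 1.79-fold, 0.84 ± 0.14 (limma adjusted p = 0.0113), and M-BMM 1.76-fold, 0.81 ± 0.14 (limma adjusted p = 0.00818). The first call was lost without GM-BMDC replicate 1 (0.70, limma adjusted p = 0.0612) and the second without M-BMM replicate 1 (0.0524) or 2 (0.0774). GM-BMM minus M-BMM was -0.03 ± 0.14, with an interval of -0.36 to 0.31 (limma adjusted p = 0.962), and its sign changed without GM-BMM replicate 1 (0.08) or M-BMM replicate 1 (0.05).

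B cells carry both Cxcr5 and Ccr6. Of 13 measured B cell markers, 5 were higher, 0 lower and 8 not called in GM-BMDC against GM-BMM, and 4 were higher, 2 lower (Cd79b and Cd72) and 7 not called against M-BMM. The list averaged 6.94 and 6.41 in GM-BMDC, 5.99 and 6.2 in GM-BMM, and 6.38 and 6.52 in M-BMM, so that GM-BMDC and M-BMM overlapped. Among the markers that were higher in GM-BMDC than in both macrophage populations, Cd79a, a chain of the B cell receptor complex, measured 7.15 and 6.23 in GM-BMDC, 3.99 and 4.49 in GM-BMM, and 4.73 and 4.49 in M-BMM. Ms4a1 (CD20) measured 6.87 and 6.14 in GM-BMDC, 4.91 and 4.66 in GM-BMM, and 4.98 and 5.34 in M-BMM. In GM-BMDC, replicate 1 was the higher array for Cxcr5, Ccr6, Cd79a and Ms4a1 alike. That order was not particular to B cell genes: Cxcr4, Cx3cl1, Grk3 and Rgs3 had it too, and Ccr1, Ccr2 and Ccrl2 had the reverse. Pax5, which B cells need for their identity, measured 6.85 and 6.28 in GM-BMDC against 5.85 to 6.02 elsewhere, 0.63 ± 0.19 above GM-BMM (limma adjusted p = 0.0820). Spib, higher in GM-BMDC than in both macrophage populations, is also a gene of plasmacytoid dendritic cells. The part of B cell RNA in the Cxcr5 and Ccr6 results was not tested.

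Cx3cr1, the fractalkine receptor of monocytes and resident macrophages, rested on 1 array. It measured 6.67 and 6.80 in GM-BMDC, 6.94 and 9.77 in GM-BMM, and 6.94 and 6.92 in M-BMM. Apart from GM-BMM replicate 2, all arrays lay within 6.67 to 6.94. No comparison passed: GM-BMDC minus GM-BMM was -1.61 ± 0.75 (interval -3.36 to 0.13, limma adjusted p = 0.255). GM-BMM minus M-BMM was 1.42 ± 0.75 (interval -0.33 to 3.17, limma adjusted p = 0.374), and GM-BMDC minus M-BMM -0.19 ± 0.75 (limma adjusted p = 0.915). Without GM-BMM replicate 1 the first 2 became -3.03 (limma adjusted p = 0.000135) and 2.84 (limma adjusted p = 0.000190), fits in which GM-BMM is a single array assumed to vary like the other groups. Without GM-BMM replicate 2 they were -0.20 and 0.01 (limma adjusted p = 0.546 and 0.993).

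The Cx3cr1 gap of 2.83 between the GM-BMM arrays was matched or exceeded by only 16 other genes, 0.0853% of all genes with Cx3cr1 counted, named here after their values were seen. They include Xist and the Y-linked Eif2s3y, Uty and Kdm5d. Among the rest, Cd300e (a monocyte receptor, 6.54 and 9.48), Fcrl5 (5.24 and 8.89) and Slc13a3 (7.10 and 10.35) were also higher in GM-BMM replicate 2. The chemokine gene Ccl17 (10.74 and 6.74), the lectin Mgl2 (9.47 and 5.87) and Ear6 (8.83 and 5.91) were higher in replicate 1. The Cx3cr1 level therefore differed between 2 arrays that also differed in other myeloid genes and in sex-linked genes, and their part in the result was not tested. With a Y-linked covariate the Cx3cr1 differences were -1.59, 2.38 and 0.79, none of which passed (limma adjusted p = 0.0944, 0.0759 and 0.512), and the last had changed sign.

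**Figure D3:**
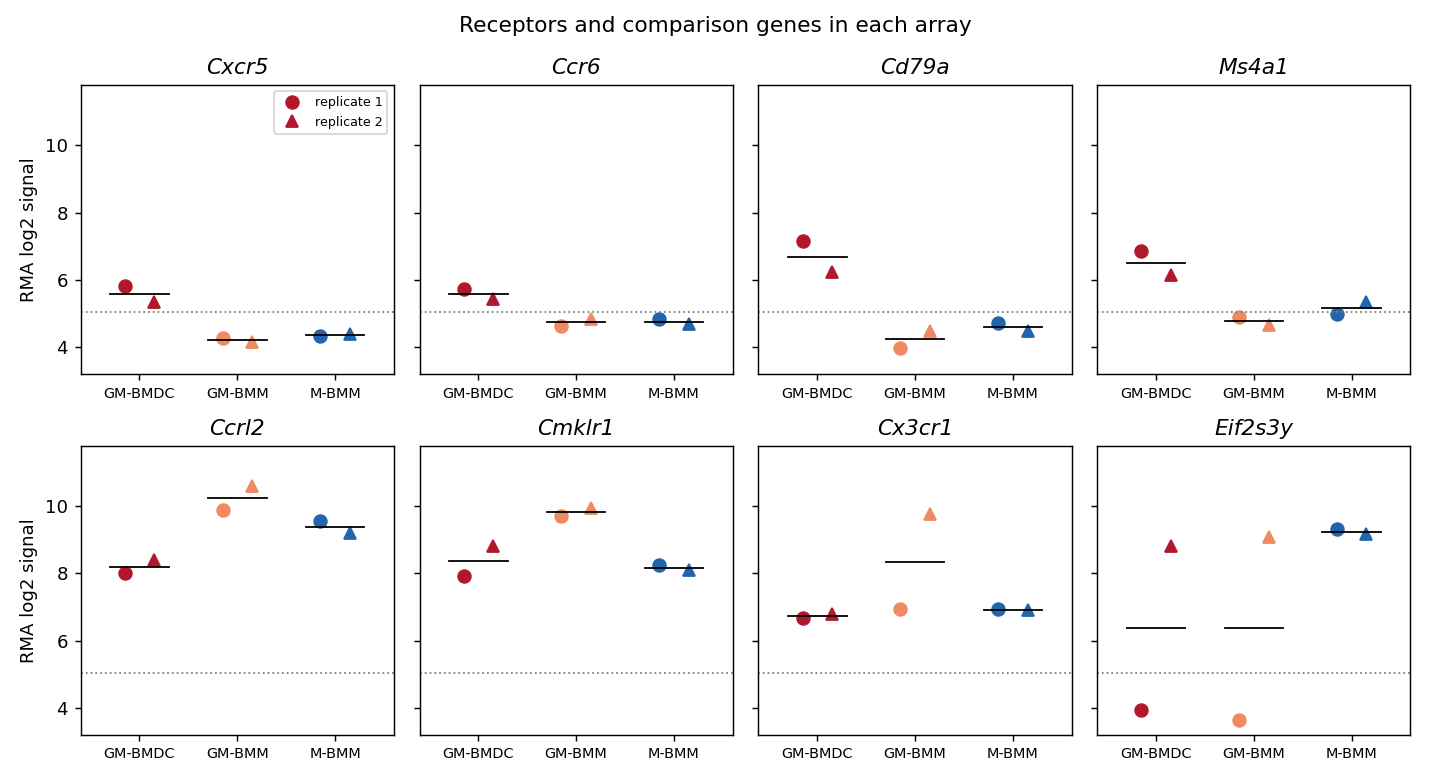
RMA log2 signal (y axis) in each array, by population, for Cxcr5 and Ccr6 beside the B cell genes Cd79a and Ms4a1, for Ccrl2 beside Cmklr1, and for Cx3cr1 beside the Y-linked Eif2s3y. Symbols are as for the receptors by array. The GM-BMDC circle is the higher point for Cxcr5, Ccr6, Cd79a and Ms4a1, and the GM-BMM triangle for Cx3cr1 and Eif2s3y. Both M-BMM arrays and GM-BMDC replicate 2 were also high for Eif2s3y, and their Cx3cr1 values were 6.94, 6.92 and 6.80.

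Genes of the receptors' ligands were measured in the same cells, from a list of 18. GM-BMDC differed from GM-BMM with 3 higher and 6 lower, GM-BMM from M-BMM with 4 higher and 0 lower, and GM-BMDC from M-BMM with 5 higher and 5 lower. Over all genes 10.4%, 6.19% and 16.7% were called in these comparisons. The median log2 differences over the list were -0.08, 0.15 and -0.06.

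For Ccr2, all 3 listed ligand genes were lower in GM-BMDC, where the receptor had its highest mean, although its difference from GM-BMM did not pass. Ccl7 measured 7.14 and 7.48 in GM-BMDC, 10.93 and 10.42 in GM-BMM, and 10.49 and 10.67 in M-BMM. It was 10.3-fold lower in GM-BMDC than in GM-BMM (-3.37 ± 0.19, limma adjusted p = 0.000141) and 9.67-fold lower than in M-BMM. Ccl2, the main monocyte attractant, measured 9.35 and 9.74 in GM-BMDC, 12.11 and 11.48 in GM-BMM, and 10.85 and 10.91 in M-BMM, and was 4.77-fold lower in GM-BMDC than in GM-BMM (-2.25 ± 0.22, limma adjusted p = 0.00108). Ccl2 was also lower in GM-BMDC than in M-BMM (-1.34 ± 0.22, limma adjusted p = 0.00607). Ccl12 was lower in GM-BMDC by -1.29 ± 0.26 against GM-BMM (limma adjusted p = 0.0226) and by -1.5 ± 0.26 against M-BMM (limma adjusted p = 0.00797). The first Ccl12 call was lost without GM-BMDC replicate 1 (0.0891), GM-BMDC replicate 2 (0.0808) or GM-BMM replicate 2 (0.0624), and the second without M-BMM replicate 1 (0.0861).

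Among the ligand genes of Ccr1, Ccl5, Ccl6 and Ccl9 were higher in both GM-CSF populations than in M-BMM, and Ccl3 and Ccl7 were lower in GM-BMDC than in both macrophage populations. Ccl5 was higher in the GM-CSF populations, like the receptor, at 13.45 and 13.16 in GM-BMDC, 12.04 and 12.57 in GM-BMM, and 9.04 and 9.05 in M-BMM. It was 19.1-fold higher in GM-BMDC than in M-BMM (4.25 ± 0.19, limma adjusted p = 2.59e-05) and 9.57-fold higher in GM-BMM than in M-BMM. Ccl9 was 3.05-fold higher in GM-BMM (1.61 ± 0.16, limma adjusted p = 0.00130) and 3.53-fold higher in GM-BMDC than in M-BMM. Ccl6 was 2.62-fold higher in GM-BMM (limma adjusted p = 0.0341) and 3.06-fold higher in GM-BMDC (limma adjusted p = 0.00899) than in M-BMM. Both Ccl6 calls were lost without M-BMM replicate 1 (0.170 and 0.0647) or 2 (0.242 and 0.0868), and the first also without GM-BMDC replicate 1 or 2 (0.0511 for each). Ccl3 was lower in GM-BMDC than in GM-BMM (-0.72 ± 0.12, limma adjusted p = 0.00903), as Ccl7 was.

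Cx3cl1, the tethered ligand of Cx3cr1, was higher in GM-BMDC than in both macrophage populations. It measured 8.95 and 8.26 in GM-BMDC, 6.17 and 6.28 in GM-BMM, and 5.84 and 6.25 in M-BMM, with no overlap between GM-BMDC and the macrophages. It was 5.21-fold higher than in GM-BMM (2.38 ± 0.24, limma adjusted p = 0.00116) and 5.91-fold higher than in M-BMM (2.56 ± 0.24, limma adjusted p = 0.000508). The Cx3cr1 signal in GM-BMDC, 6.67 and 6.80, was the lowest of its 6 values.

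Ligand genes of Cxcr3 went in opposite directions. Cxcl9 was higher in GM-BMDC than in GM-BMM (0.62 ± 0.12, limma adjusted p = 0.0195) and than in M-BMM (0.94 ± 0.12, limma adjusted p = 0.00220). Cxcl10 was highest in GM-BMM, at 9.37 and 9.75 against 7.49 and 8.05 in GM-BMDC and 8.41 and 8.38 in M-BMM. It was 3.45-fold lower in GM-BMDC than in GM-BMM (limma adjusted p = 0.00209) and 2.24-fold higher in GM-BMM than in M-BMM (limma adjusted p = 0.0174). The second Cxcl10 call was lost without GM-BMM replicate 2 (0.97, limma adjusted p = 0.0627) or M-BMM replicate 1 (0.140) or 2 (0.160). Cxcl11 passed no comparison.

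Cxcl13, the ligand of Cxcr5, had its highest signals in GM-BMM, where the receptor was low. It measured 5.00 and 5.05 in GM-BMDC, 5.97 and 7.38 in GM-BMM, and 5.13 and 5.03 in M-BMM. GM-BMDC minus GM-BMM was -1.65 ± 0.38 (limma adjusted p = 0.0358), and GM-BMM minus M-BMM 1.59 ± 0.38 (limma adjusted p = 0.0574). The call was lost without GM-BMDC replicate 1 or 2 or either M-BMM array (limma adjusted p = 0.0954 to 0.149). The difference was -2.35 without GM-BMM replicate 1 and -0.95 without GM-BMM replicate 2. Cxcl12 of Cxcr4, Ccl20 of Ccr6, and Ccl11 and Ccl24 of Ccr3 passed no comparison.

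**Figure D4:**
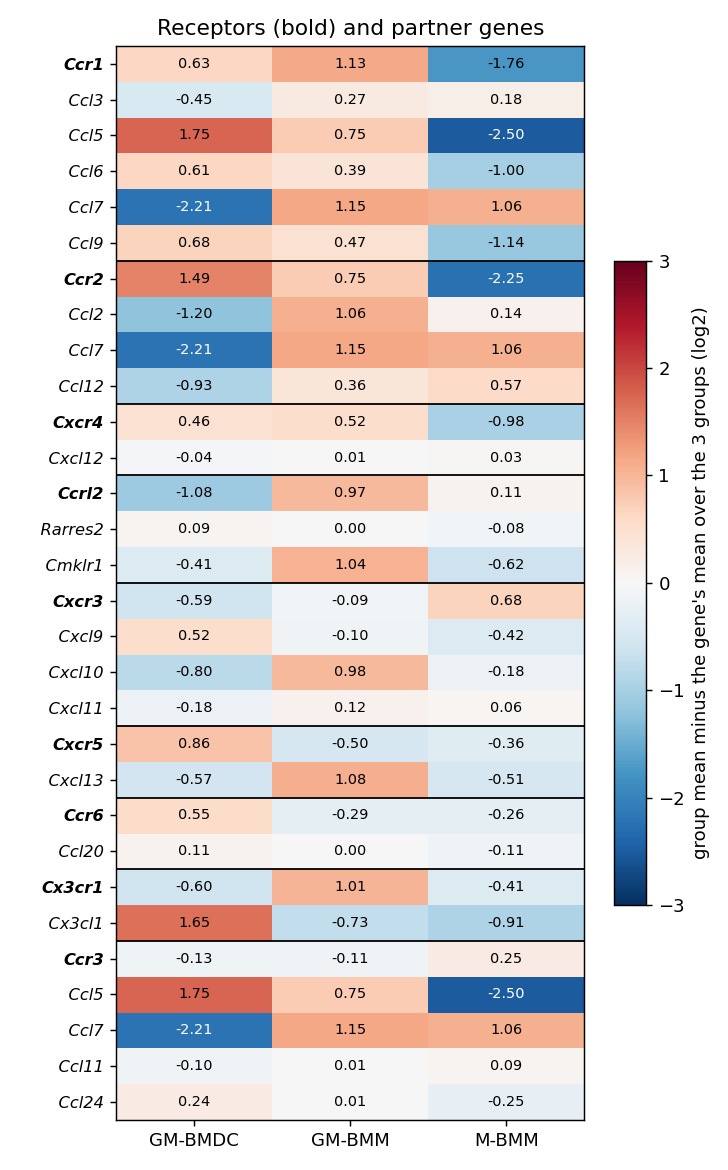
Mean log2 signal of each population minus the gene's mean over the 3 populations (colour and printed value), for each receptor (bold) with its listed ligand genes, and for Ccrl2 with Rarres2 and Cmklr1. Ccl7 reads -2.21 in GM-BMDC where Ccr2 reads 1.49, but 1.15 in GM-BMM where Ccr2 reads 0.75. Ccl5 follows Ccr1 with its lowest value, -2.50, in M-BMM.

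Of 10 other chemokine receptor genes measured, GM-BMDC had 1 higher and 0 lower than GM-BMM. GM-BMM had 1 higher and 0 lower than M-BMM, and GM-BMDC 2 higher and 1 lower than M-BMM. The share called over all genes was 10.4%, 6.19% and 16.7% in these comparisons. Ccr7, the lymph node homing receptor, accounts for 1 in each comparison (4.48 ± 0.19, 1.16 ± 0.19 and 5.65 ± 0.19), the second lost without GM-BMM replicate 1 (0.0537) or M-BMM replicate 1 (0.0550). Ccr4, a receptor for Ccl17 and Ccl22, measured 7.15 and 6.47 in GM-BMDC, 6.23 and 5.32 in GM-BMM, and 4.68 and 5.08 in M-BMM. It was 3.82-fold higher in GM-BMDC than in M-BMM (1.93 ± 0.33, limma adjusted p = 0.00730), a call lost without M-BMM replicate 1 (1.73, limma adjusted p = 0.0863). Of 6 atypical or related receptor genes, C5ar2, the second C5a receptor, was lower in GM-BMDC than in GM-BMM (-0.78 ± 0.18, limma adjusted p = 0.0343) and than in M-BMM (-0.67 ± 0.18, limma adjusted p = 0.0429). The other 5, Ackr1 to Ackr4 and Pitpnm3, passed no comparison.

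Downstream of the receptors, 38 of 40 listed signalling genes were measured. GM-BMDC had 5 higher and 2 lower than GM-BMM, GM-BMM 2 higher and 3 lower than M-BMM, and GM-BMDC 5 higher and 7 lower than M-BMM. The list's median log2 difference was -0.07, -0.11 and -0.06. Of the 38, 31, 33 and 26 did not pass. Over all genes 10.4%, 6.19% and 16.7% were called in these comparisons.

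Among genes of signal termination, Rgs3 and Grk3 were higher in GM-BMDC than in GM-BMM. Rgs3, a GTPase activator for G protein alpha subunits, measured 8.80 and 8.42 in GM-BMDC against 6.75 to 7.06 in the 4 macrophage arrays (1.70 ± 0.16 above GM-BMM, limma adjusted p = 0.00104). It was 3.21-fold higher than in M-BMM. Grk3, a kinase that desensitises receptors, measured 9.74 and 9.22 in GM-BMDC, 7.24 and 7.93 in GM-BMM, and 8.60 and 8.61 in M-BMM (1.89 ± 0.25 above GM-BMM, limma adjusted p = 0.00391). Its difference from M-BMM did not pass (0.87 ± 0.25, limma adjusted p = 0.0547).

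Among genes that activate small GTPases, Rasgrp2 and Vav1 were lower in GM-BMDC than in both macrophage populations. Rasgrp2, which activates Rap1, measured 6.00 and 5.76 in GM-BMDC, 6.99 and 7.35 in GM-BMM, and 7.96 and 8.38 in M-BMM. It was 4.89-fold lower in GM-BMDC than in M-BMM (-2.29 ± 0.19, limma adjusted p = 0.000326) and 2.45-fold lower than in GM-BMM. Vav1, which activates Rac, was 3.55-fold lower in GM-BMDC than in M-BMM (-1.83 ± 0.18, limma adjusted p = 0.000725) and 2.51-fold lower than in GM-BMM. Elmo1, the partner of Dock proteins in Rac activation, was 3.25-fold lower in GM-BMM than in M-BMM (-1.70 ± 0.13, limma adjusted p = 0.000396) and 2.55-fold lower in GM-BMDC.

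Plcb2, the phospholipase C of leukocyte chemoattractant signalling, was lower in M-BMM than in both GM-CSF populations, as Ccr1, Ccr2 and Cxcr4 were. It measured 10.04 and 10.40 in GM-BMDC, 10.18 and 9.83 in GM-BMM, and 8.72 and 8.67 in M-BMM. It was 2.48-fold higher in GM-BMM than in M-BMM (1.31 ± 0.17, limma adjusted p = 0.00466), a call lost without M-BMM replicate 1 (0.0631) or 2 (0.0739), and 2.87-fold higher in GM-BMDC. Pik3r6, a regulatory subunit of phosphoinositide 3-kinase gamma, was 2.39-fold higher in GM-BMDC than in M-BMM (1.26 ± 0.12, limma adjusted p = 0.000614).

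For the 7 members called in at least 1 comparison, the 3 genes with the most similar pattern were found by the root mean square distance of centred log2 values over the 6 arrays. The correlations that follow describe 6 arrays that share populations. Ccr1 was nearest to P2ry14, a receptor for UDP sugars (distance 0.35, r = 0.96), followed by the lectins Clec9a (0.38) and Clec4n (0.39). Ccr2 was nearest to Clec7a, the beta-glucan receptor Dectin-1 (0.36, r = 0.98), followed by Naaa (0.37) and Scimp (0.40). Clec7a measured 10.96 and 11.19 in GM-BMDC, 10.92 and 10.35 in GM-BMM, and 7.36 and 7.03 in M-BMM.

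The nearest genes of Cxcr4 were Galm (0.12), the serotonin receptor Htr2a (0.14) and lipoprotein lipase Lpl (0.14). Those of Ccrl2 were the acid phosphatase Acp5 (0.13), the interferon-induced exonuclease Isg20 (0.14) and the Fc receptor Fcgr1 (0.14). Cxcr3 was nearest to Coq8a (0.093), Twf1 (0.10) and Tbc1d2b (0.10). Ccr6 was nearest to Foxn2 (0.050), Ppp1r16b (0.057) and Ncoa7 (0.061), and Cxcr5 to Pmaip1 (0.054), Rps6ka5 (0.063) and Cep126 (0.080). For receptors with a narrow range, such as Ccr6 and Cxcr5, small distances are easier to reach.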

How the data were processed

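RNA of 6 samples was measured on Affymetrix arrays, 2 for each of 3 populations. Per the submitters' processing notes, the authors used Affymetrix Expression Console 1.1 and RMA, and the deposited values are log2 signals of 35556 probe sets. RMA sets the arrays' distributions equal and summarises probes, which compresses differences at low signal. Of the probe sets, 21789 had 1 annotated gene, 1621 several and 12146 none, and for the 999 genes with several probe sets that with the highest mean over all arrays was kept, leaving 19938 genes. Arrays carry no read depth, and 2 per group limit the precision.

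Comparisons were fitted on all 6 arrays in R 4.3.3 with limma 3.58.1 (3 residual and 4.34 prior degrees of freedom, two-sided, Benjamini-Hochberg within a comparison at 0.05), with no filter on low values. The fit was also run on data simulated from its own fitted variance model. Such data cannot show how the fit handles replicates that differ in source or in sex-linked genes. The members and lists were chosen with earlier results of these data known. Named are all members, the 3 genes nearest to each called member, and from the lists the called genes with a log2 difference of at least 1 (at most the 6 largest in a comparison), plus listed partners of a named receptor. The markers, Ccr1l1, C5ar2 and genes of replicate gaps fall outside this rule and were named after their values were seen. Alternatives left out each array, changed the variance model, filter, normalization, probe set choice, features tested or groups fitted, or added a replicate block. Others were chosen after seeing the data of an earlier analysis: leaving out both GM-CSF arrays of 1 number, a covariate of Y-linked genes and a crossed block. Promoters came from RefSeq's table for GRCm38.p6, and the build behind the array annotation is not given in the sources used here. Figures and promoter searches used matplotlib 3.10.9, NumPy 2.4.6, pandas 2.3.3 and Python 3.11.15.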

Additional observations from a re-analysis of the deposited data

How the results depend on the processing

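Over 19 alternative settings, all 14 called differences of the receptors kept their direction wherever they were tested, and 7 kept their call in each setting that tested them, other than the fit without moderated variances. For the 2 Cxcr5 differences among these 7, the filter on low values gave no test. Of 13 uncalled differences, 5 changed sign. Without moderation 0, 0 and 0 receptors passed between GM-BMDC and GM-BMM, between the macrophages and between GM-BMDC and M-BMM, in that order. Of all genes 0, 8 and 17 passed. At an unadjusted p under 0.05 of this ordinary t-test, the counts were 3, 4 and 7 receptors and 3686, 3075 and 4628 genes. The filter on low values left 1 receptor called in GM-BMDC minus GM-BMM, since it removed Ccr6 and Cxcr5. Testing all probe sets left 2 in GM-BMM minus M-BMM. Leaving out each array in turn gave 1 to 5 receptors called in GM-BMM minus M-BMM and 4 to 7 in GM-BMDC minus M-BMM, and 1102 to 2055, 319 to 1347 and 1288 to 3412 of all genes in the 3 comparisons. Fitting only the groups compared gave 1207 genes in GM-BMDC minus GM-BMM, leaving out both GM-CSF arrays numbered 2 gave 2048 in GM-BMM minus M-BMM, and the Y-linked covariate 2114 in GM-BMDC minus M-BMM. Where 1 array is left in a group, it is assumed to vary like the others.

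Sign changes when single arrays were left out were, for GM-BMDC minus GM-BMM, Ccr1 at 0.04 and 0.14 (range -1.14 to 0.14), Ccr3 at 0.08 and 0.13 (range -0.16 to 0.13) and Cxcr4 at 0.0794 (range -0.20 to 0.0794), and for GM-BMM minus M-BMM, Ccr6 at 0.0770 and 0.0477 (range -0.13 to 0.0770). With both GM-CSF arrays numbered 1 left out, Ccr1 (0.68) and Ccr3 (0.23) changed sign in GM-BMDC minus GM-BMM and Ccr6 (0.0770) between the macrophages, and with both numbered 2 left out Cxcr4 (0.0409) did in GM-BMDC minus GM-BMM. With the genes quantile normalised, Cxcr4 (0.0145) changed sign in GM-BMDC minus GM-BMM and Ccr6 (0.0067) between the macrophages, and with the Y-linked covariate Cx3cr1 did in GM-BMDC minus M-BMM (0.79). Apart from what each setting removes, the cause was not tested.

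Same-numbered arrays correlated in their deviations at 0.02 (GM-BMDC and GM-BMM), 0.03 (GM-BMM and M-BMM) and -0.13 (GM-BMDC and M-BMM). Most genes differ little between replicates, so these values cannot decide whether same-numbered arrays share a source, which the labels do not say. With the replicate block, 3, 4 and 7 receptors passed and 1963, 1176 and 3060 of all genes, and no receptor's call changed. With the M-BMM numbers crossed, chosen after seeing the data, 3, 5 and 7 receptors passed, Ccrl2 among the 5. Arrays carry no depth, and signals in the low range have little order.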
